A study of Mus musculus with 22 samples.

Results

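A set of 10 genes of motile cilia, the beating cell extensions that move mucus along the airway, was followed across sorted lung tumour cells and whole lung. They were chosen by symbol: Foxj1, Rfx3, Dnah5, Dynlrb2, Rsph1, Ccdc113, Tppp3, Mlf1, 1110017D15Rik and Tmem212. All 10 symbols were found on the arrays, on 11 of 45101 probe sets, with 2 probe sets for Rfx3 and 1 for each other gene. None of the 11 probe sets was listed with a second gene. No member was left out for a low value, and all 11 probe sets were tested.

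Multiciliated cells line the conducting airways together with club, basal and goblet cells. Each of their motile cilia is built on an axoneme of microtubules, along which dynein arms generate bending, and radial spokes and a central pair of microtubules regulate the beat. Foxj1, a forkhead transcription factor, and the RFX factors, which bind X-box motifs in promoters, switch on the genes of this structure when a progenitor becomes a ciliated cell. Most cells of a whole lung are alveolar, endothelial and blood cells, so genes of ciliated cells are read there against a large background of other RNA.

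The samples were 22 arrays in 4 groups. The first group was 3 samples of A2C12 side population cells treated with a monoclonal antibody against mouse EpCAM, an adhesion protein of epithelial cells, at 100 µg/ml for 48 h. The second was 3 samples of the same cells without antibody. A2C12 is 1 cell line, started from a lung tumour of a mouse that carried both a c-myc and a c-raf transgene on a C57BL/6 background. The side population is the fraction that pumps out the dye Hoechst 33342, sorted on a flow cytometer after the treatment, and unsorted cells were not analysed here. The other groups were lungs of C57BL/6 mice without the transgenes, 8 labelled female and 8 labelled male. The age of the mice and the promoters of the transgenes are not given in the sources used here. The labels call the samples biological replicates without saying whether the cell samples were separate cultures, so the p-values measure the spread between these samples.

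Values are deposited probe set intensities on a linear scale. Changes are on the log2(intensity + 16) scale after quantile normalization, so changes of genes near 0 are understated. The table holds no detection call, so a low intensity is given as a value and not as absence. Array means were 291.3 to 304.4 in the cells and 270.1 to 312.7 in lung, and array medians were 39.4 to 40.7 in the cells and 47.9 to 54.6 in lung. The dap transcript, a spiked control of labelling, lay between 438 and 761 in the cells, where no lung exceeded 3.70. Labelling and sample type therefore cannot be told apart between cells and lung. Replicates 3 and 4 of the male-labelled lungs went against their label: their Xist intensities were 1512 and 1583 and their Uty intensities 8.27 and 9.46, while the other male-labelled lungs had Xist at 12.71 to 23.96 and Uty at 722 to 1250. These lungs stay in the pooled lung, and results that rest on them are also given without them.

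Promoter windows of 300 bases were available in RefSeq (GRCm38.p6) for 7 of the 10 genes, 8 windows in all, and not for Foxj1, Tppp3 or Rsph1. They were searched on both strands for a core site of RFX factors, with the letters GTTGCC. A forkhead core, with the letters GTAAACA, was searched for in the same way. The RFX core site lay in 5 of the 8 windows (62.5%), against 12.5% of all 32851 windows of the same length. It was present for Dynlrb2, Ccdc113, Mlf1, Rfx3 and the second of the start sites of 1110017D15Rik, and not for Dnah5, Tmem212 or the other start of 1110017D15Rik. The windows of Dynlrb2, Ccdc113, Mlf1 and 1110017D15Rik carried it before the start, and the 150 bases before each of these starts are printed here because these genes had the letters that RFX factors read. In Rfx3 the match lay 31 bases after the start. Each sequence runs 5′ to 3′ on the strand of the gene, and capitals mark the matches in either orientation, so a match on the opposite strand appears as its reverse complement.
Dynlrb2, chr8:116504865-116505014, plus strand: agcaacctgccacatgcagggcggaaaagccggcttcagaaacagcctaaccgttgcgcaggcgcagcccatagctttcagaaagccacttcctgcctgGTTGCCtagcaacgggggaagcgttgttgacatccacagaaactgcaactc
Ccdc113, chr8:95533950-95534099, plus strand: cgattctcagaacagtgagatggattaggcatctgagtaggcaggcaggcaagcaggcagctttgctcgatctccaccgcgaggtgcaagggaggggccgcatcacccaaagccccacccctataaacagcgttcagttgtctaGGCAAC
Mlf1, chr3:67373947-67374096, plus strand: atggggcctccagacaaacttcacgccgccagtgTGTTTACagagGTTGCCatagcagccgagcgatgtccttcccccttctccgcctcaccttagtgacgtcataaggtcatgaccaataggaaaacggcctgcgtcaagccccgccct
1110017D15Rik, chr4:41507765-41507914, minus strand: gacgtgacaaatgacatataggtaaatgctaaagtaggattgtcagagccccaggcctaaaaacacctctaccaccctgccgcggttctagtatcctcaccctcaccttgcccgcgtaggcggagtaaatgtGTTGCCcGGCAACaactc
In Dynlrb2 the RFX core site began 51 bases before the start, and in Ccdc113 6 bases before it. 1110017D15Rik had it in both orientations, 18 and 11 bases before the start. Mlf1 had the RFX core site 105 bases before the start and, 116 bases before it, the only forkhead core among the windows of these genes (12.5% of 8 windows, against 3.65% of all). The longer X-box, which can overlap the RFX core site, was searched only as a single pattern with a fixed spacing between its arms. This pattern was in none of the 8 windows and in 1.29% of all. The matches of both orientations in 1110017D15Rik stand at another spacing, which the pattern does not cover. In Dynlrb2 too, GTTGCC is closely followed by the letters agcaac, at another spacing. They are in lower case because only exact matches of the core site were marked. The windows were not searched for an X-box of another spacing, so the lack of this pattern does not mean that they hold none. On the lists described further on, 77 other motile cilia genes had 89 windows. Of these windows, 38.2% held the RFX core site, 11.2% the X-box pattern and 5.62% the forkhead core. These are matches of letters, and binding was not measured.

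In the sorted cells, 8 of the 10 genes were far lower than in lung: Foxj1, Dynlrb2, Rsph1, Ccdc113, Tppp3, Mlf1, 1110017D15Rik and Tmem212. Rfx3 did not pass the test on either of its probe sets, and Dnah5 was lower by less than 2-fold. A probe set was called when its limma adjusted p, by Benjamini-Hochberg over all 45037 probe sets that are not controls, was below 0.05 and its change was at least 2-fold. In the background, 14.2% of all probe sets were called lower in antibody-treated cells than in lung and 14.3% in untreated cells. Of the 11 member probe sets, 8 were called lower in each of the cell groups and none was called higher, where 15.1% of all probe sets were called higher in antibody-treated and 15.3% in untreated cells. Both cell groups were set against the same 16 lungs, so the counts are not independent. All arrays of a cell group were below all lungs for 9 of the 11 member probe sets in both cell groups, with 25.6% of all probe sets in antibody-treated and 25.8% in untreated cells. In whole lung, fewer cells of a type and less RNA per cell cannot be told apart, and a pure cell population is compared with a mix of cell types.

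**Figure D1:**
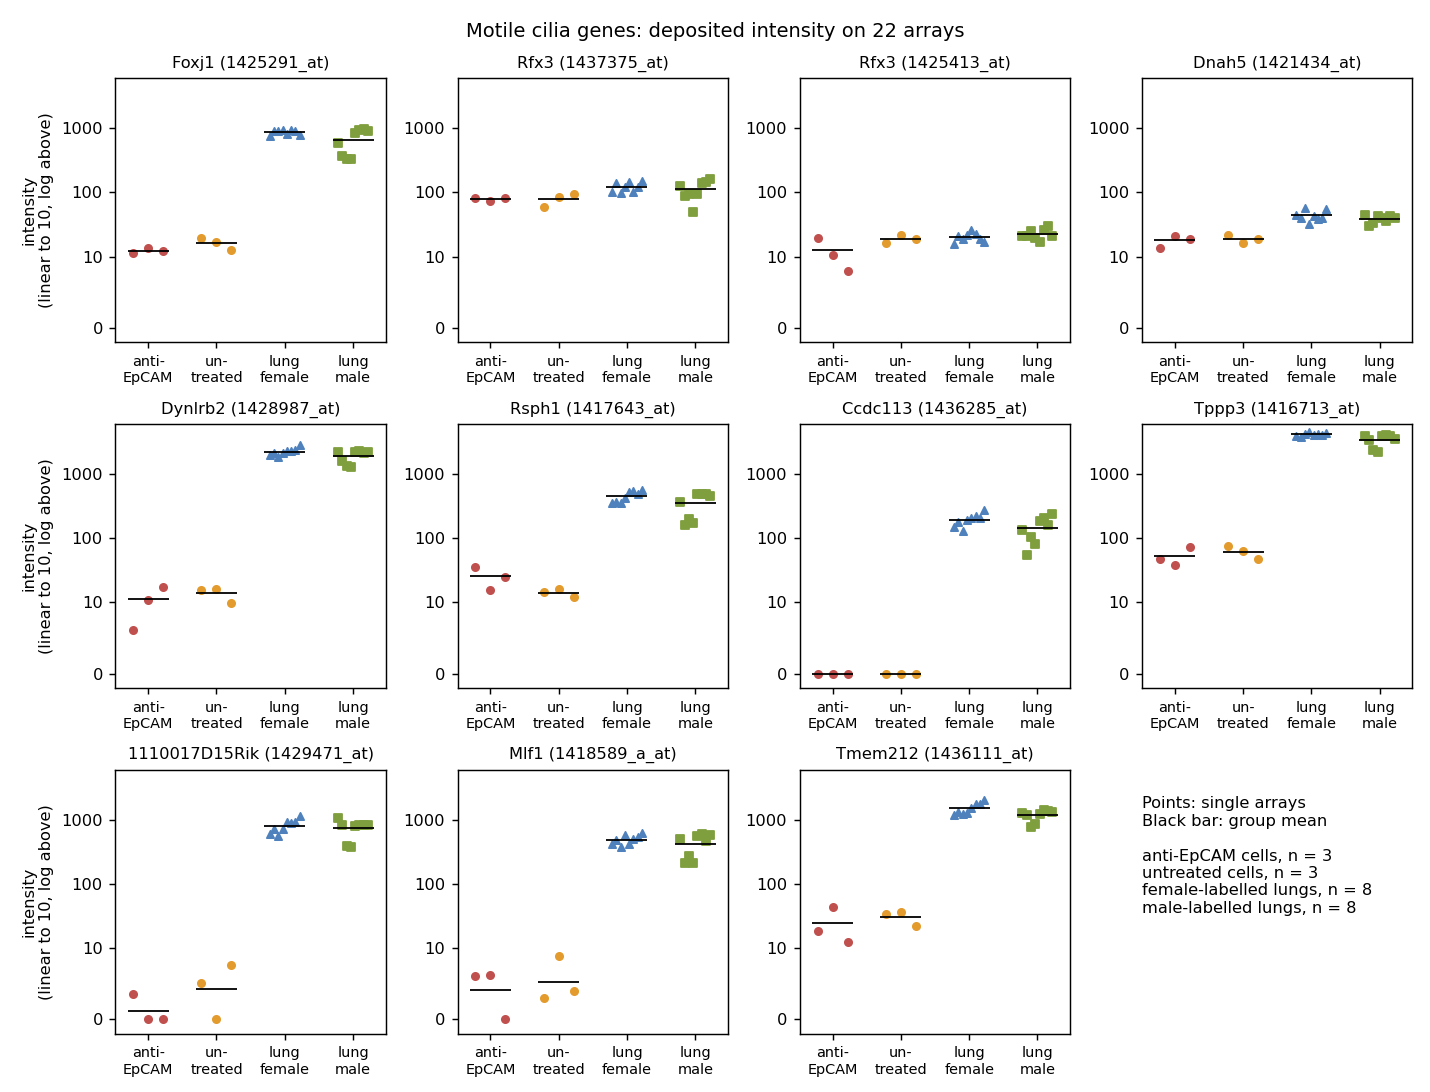
Deposited intensity of the 11 probe sets on each array (vertical axis, linear up to 10 and logarithmic above), with antibody-treated cells, untreated cells, female-labelled and male-labelled lungs from left to right and a black bar at each group mean. All cell arrays lie below all lungs for every probe set but those of Rfx3.

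The regulators behaved unlike each other. Foxj1 (probe set 1425291_at), required for motile cilia, had intensities of 11.5, 13.4 and 12.2 in antibody-treated cells and 19.5, 16.8 and 12.9 in untreated cells. In the lungs its lowest, median and highest values were 327, 869 and 973. Even the lowest lung was far above all 6 cell arrays, which lay at the 24.1 to 34.5 percentile of their arrays, while the lungs lay at the 81.2 to 92.5 percentile. Relative to lung, antibody-treated cells had a log2 difference of -4.59 ± 0.22 (SE, limma adjusted p 9.96e-16) and untreated cells one of -4.39 ± 0.22 (adjusted p 2.45e-15).

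Rfx3 (1437375_at), a winged-helix factor that binds X-boxes and also serves primary cilia, had 83.3, 74.3 and 83.5 in antibody-treated cells and 59.4, 86.5 and 94.6 in untreated cells. The lungs ran from 49.9 through a median of 122 to 165, so the groups overlapped. Its log2 change against lung was -0.13 (95% interval -0.50 to 0.23, limma adjusted p 0.505) in antibody-treated cells and -0.14 (-0.50 to 0.22, adjusted p 0.486) in untreated cells. The second Rfx3 probe set, 1425413_at, was dim everywhere, with 19.7, 10.7 and 7.99 in antibody-treated cells, 16.5, 21.6 and 18.9 in untreated cells, and 15.9, 21.0 and 30.2 as the lowest, median and highest lung. It was not called either, with log2 changes of -0.23 (-0.47 to 0.01, limma adjusted p 0.075) and 0.09 (-0.15 to 0.33, adjusted p 0.505) in antibody-treated and untreated cells against lung. These intervals leave out a 2-fold change in either direction on this scale. Of the 11 probe sets, those of Rfx3 alone overlapped between cells and lung.

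Among the motor genes, Dynlrb2 (1428987_at), a light chain of the roadblock type, showed the largest log2 difference of the 11 probe sets in both cell groups at this offset. With an offset of 1, 1110017D15Rik exceeded it in antibody-treated cells (-8.54 against -7.25) and in untreated cells (-7.32 against -6.91), as did Ccdc113 in untreated cells (-7.15). Dynlrb2 had 6.07, 10.8 and 17.3 in antibody-treated cells and 15.7, 16.4 and 9.94 in untreated cells, against 1274, 2189 and 2846 as the lowest, median and highest lung. The log2 change was -6.16 ± 0.16 (limma adjusted p 1.59e-21) in antibody-treated cells and -6.01 ± 0.16 (adjusted p 2.63e-21) in untreated cells against lung. Dnah5 (1421434_at), a heavy chain of the outer dynein arm that is mutated in primary ciliary dyskinesia, was dim in lung too. Its intensities were 13.7, 21.3 and 18.8 in antibody-treated cells, 21.8, 16.3 and 18.9 in untreated cells, and 30.2, 40.0 and 57.8 as the lowest, median and highest lung. The groups did not overlap and the adjusted p passed 0.05, but the log2 changes of -0.55 ± 0.12 (limma adjusted p 2.56e-04) and -0.51 ± 0.12 (adjusted p 5.64e-04) in antibody-treated and untreated cells against lung were below 2-fold. The lungs lay at the 38.1 to 52.4 percentile of their arrays for this probe set.

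Rsph1 (1417643_at), a protein of the radial spoke head, had 35.6, 15.5 and 25.0 in antibody-treated cells and 14.6, 15.9 and 12.1 in untreated cells. The lungs ran from 161 through a median of 440 to 573, above every cell array. The log2 change was -3.10 ± 0.24 (limma adjusted p 1.65e-11) in antibody-treated cells and -3.56 ± 0.24 (adjusted p 1.06e-12) in untreated cells against lung. Ccdc113 (1436285_at), a coiled-coil protein of cilia, was at most 0.00374 in antibody-treated cells and at most 0.00810 in untreated cells, the lowest readings of the set and practically 0. Its lungs ran from 54.0 through 181 to 273, and its log2 change was -3.37 ± 0.23 in both cell groups (limma adjusted p 1.09e-12 in each). Because the cells were at 0, this change is set by the offset: with an offset of 1 it was -7.22 in antibody-treated and -7.15 in untreated cells.

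Tppp3 (1416713_at), a tubulin-binding protein that marks ciliated cells, was the member with the brightest lung reading and kept a readable signal in the cells. It had 47.4, 38.5 and 72.9 in antibody-treated cells and 75.0, 63.0 and 48.3 in untreated cells, against 2205, 3982 and 4486 as the lowest, median and highest lung. Every cell array was far below the lowest lung. The log2 changes were -5.61 ± 0.16 (limma adjusted p 2.00e-20) and -5.40 ± 0.16 (adjusted p 4.43e-20) in antibody-treated and untreated cells. Tmem212 (1436111_at), a membrane protein, had 18.7, 43.9 and 12.7 in antibody-treated cells and 34.5, 36.8 and 22 in untreated cells, against 787, 1300 and 2048 as the lowest, median and highest lung. Its log2 changes were -4.95 ± 0.19 (limma adjusted p 1.44e-17) and -4.68 ± 0.19 (adjusted p 4.52e-17).

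The last members were at or near 0 on several cell arrays. Mlf1 (1418589_a_at), myeloid leukemia factor 1, had 6.12, 6.30 and 0.112 in antibody-treated cells and 2.95, 8.94 and 3.96 in untreated cells, against 216, 489 and 615 as the lowest, median and highest lung, a log2 change of -4.42 ± 0.21 and -4.32 ± 0.21 (limma adjusted p 1.18e-15 and 1.79e-15). 1110017D15Rik (1429471_at) had 3.60, 0.0170 and 0.0227 in antibody-treated cells and 5.17, 0.0714 and 7.65 in untreated cells, against 381, 829 and 1158 as the lowest, median and highest lung. Its log2 change was -5.44 ± 0.23 (limma adjusted p 9.50e-17) in antibody-treated cells and -5.17 ± 0.23 (adjusted p 2.57e-16) in untreated cells against lung. Over the 10 genes, read by the brighter Rfx3 probe set, the median log2 change was -4.50 in antibody-treated and -4.35 in untreated cells, against 0.05 and 0.07 over all 18193 genes read by 1 probe set each.

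**Figure D2:**
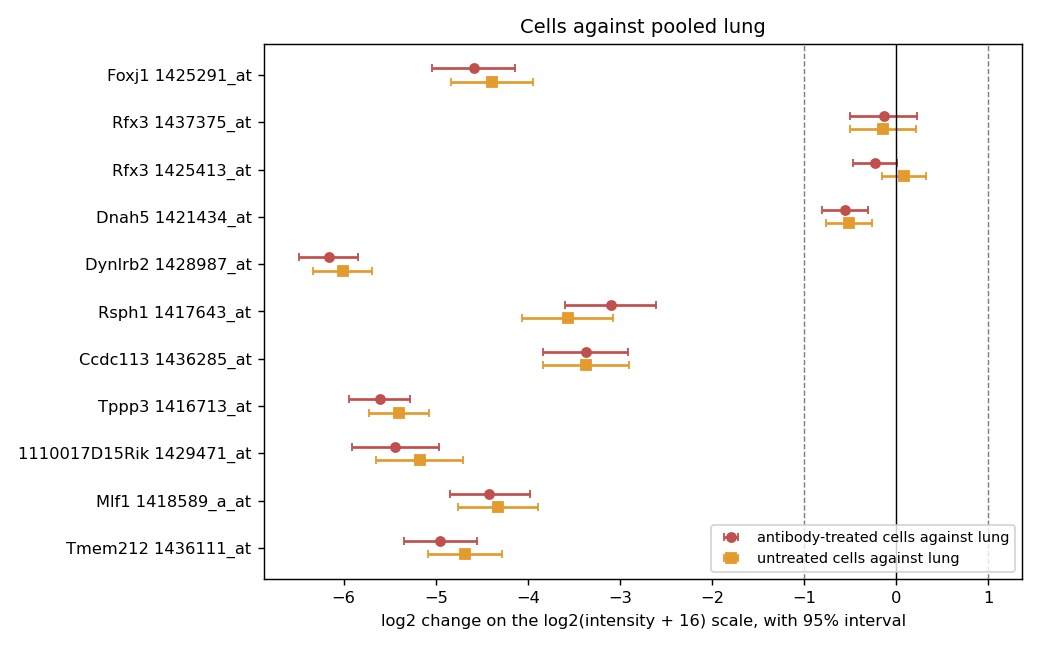
Log2 change of each probe set in antibody-treated (circles) and untreated cells (squares) against the mean of female and male lung, with 95% intervals. Dashed lines mark 2-fold changes. Rfx3 and Dnah5 lie inside them, and the other 8 probe sets lie between -6.16 and -3.10.

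The antibody comparison set sorted cells with and without the antibody against each other. No group had a control antibody, and sorting followed the treatment. Binding of EpCAM therefore cannot be told apart from other effects of the treatment or from a change in which cells were sorted. None of the 11 member probe sets was called between antibody-treated and untreated cells, where 3 of 45037 probe sets (0.00666%) passed a limma adjusted p of 0.05 and 1022 (2.27%) an unadjusted one. Every adjusted p of a member was 1, and the groups overlapped for all 11, where 6.00% of all probe sets had groups apart. The highest estimate was that of Rsph1, 0.46 ± 0.20 on the log2 scale (95% interval -0.01 to 0.93, unadjusted limma p 0.0536, n = 3 each), with treated replicate 2 inside the range of the untreated cells. The lowest was the dim Rfx3 probe set, -0.32 (-0.74 to 0.10). For Foxj1 the difference was -0.20 (-0.49 to 0.08), and for Tppp3 it was -0.21 (-0.74 to 0.32). The widest interval, that of Tmem212, was -0.96 to 0.42, so with 3 arrays a group its values are compatible with any change in that range. The interval is not a limit of detection, because a call also needed to pass adjustment over 45037 probe sets.

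Other genes of motile cilia, read by 1 probe set each, were lower in the cells in most of the 6 lists examined. Of 89 measured genes on these lists, 64 were called lower and 3 higher in antibody-treated cells, and 65 lower and 3 higher in untreated cells. In the background of 18193 genes, 20.0% were called lower in each of the cell groups, and 14.8% higher in antibody-treated and 15.3% in untreated cells. The median log2 change of the 89 genes was -1.84 in antibody-treated and -1.87 in untreated cells. None of the 89 genes was called between antibody-treated and untreated cells, where 2 of all 18193 genes were (0.0110%). The probe set with the highest mean over all arrays was read for each gene, and 16 of the 22 arrays are lung, so this choice favours sets that are bright in lung. Of the 65 genes called lower in untreated cells, 37 had 1 probe set, 8 had all probe sets called lower and 20 had another set that was not. With the median over a gene's probe sets in place of the brightest, the median change of the 89 genes was -1.31.

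The regulators upstream of ciliogenesis were the most mixed list, with 5 of 10 measured genes lower and 1 higher in untreated cells. Myb, a transcription factor of early multiciliated progenitors, averaged 5.84 ± 3.87 in antibody-treated cells, 5.63 ± 6.50 in untreated cells and 146 ± 38.3 in lung (SD, n = 3, 3 and 16), a log2 change of -2.74 in untreated cells. Trp73, a p53 family factor needed for multiciliogenesis, changed by -1.99, and its other probe set, at -0.91, was not called. E2f5, a partner of the multicilin complex, changed by -1.59, and both of its other probe sets, at -0.24 and -0.08, were not called. Tfdp1, the dimer partner of E2F factors in cell cycle genes as well, was higher in the cells, with 1150 ± 44.0 in antibody-treated cells, 1230 ± 102 in untreated cells and 351 ± 48.6 in lung.

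The axonemal dynein arm list had 10 of 13 genes lower and none higher in untreated cells. Dnali1, an inner arm light intermediate chain, averaged 4.39 ± 3.97 in antibody-treated cells, 4.71 ± 4.19 in untreated cells and 408 ± 106 in lung. Dnah6 changed by -2.70 in untreated cells. The heavy chains Dnah8 and Dnah9 changed by -3.09 and -2.95 on the probe sets read, but a second probe set of each was called in the opposite direction, at 1.15 and 1.24, so their direction depends on the probe set. Among docking and assembly factors, which build dynein arms in the cytoplasm and fix them to the axoneme, 9 of 15 were lower and 1 was higher. Ccdc39, a ruler protein of the axoneme, averaged 14.8 ± 5.18 in antibody-treated cells, 11.9 ± 5.43 in untreated cells and 241 ± 65.3 in lung. Of its other probe sets one was called at -1.17 and one, at -0.03, was not. Its partner Ccdc40 changed by -2.96, Zmynd10, an assembly factor, by -2.52 and Armc4, a docking protein, by -1.98. The exception was Dnaaf2, an assembly factor, at 1.07, named here after its value was seen.

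Of the radial spoke and nexin link genes, 11 of 14 were lower and 1 was higher in untreated cells. Nme5 (-3.77) and Rsph4a (-3.20), both of the radial spoke, and Drc1 (-3.14), of the nexin link, led this list with Iqca at -3.63, whose other probe set, at 0.43, was not called. Ropn1l, a spoke protein also used in sperm, was the exception at 1.23, named after its value was seen. Of the central apparatus genes, 8 of 12 were lower. Ak7, an adenylate kinase, averaged 2.96 ± 0.754 in antibody-treated cells, 4.31 ± 1.18 in untreated cells and 729 ± 148 in lung, a log2 change of -5.09 in untreated cells. Stk36 changed by -4.17 and Spef1 by -2.83, and each had another probe set that was not called. Spag16 changed by -2.82 on the probe set read, but its other sets, at 0.32, 0.15 and 0.66, were not called.

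The other axonemal and ciliated cell genes had the lowest median of the 6 lists, -3.26, with 22 of 25 lower in untreated cells. Sec14l3, a lipid-binding protein of airway epithelium, averaged 15.5 ± 8.78 in antibody-treated cells, 16.6 ± 1.55 in untreated cells and 6547 ± 653 in lung, and all 3 of its probe sets were called lower. Fam183b changed by -5.11, Cdhr4 by -4.86 and Capsl by -4.76. Intraflagellar transport and BBSome genes, which also serve the single primary cilium of cells without motile cilia, did not share this pattern. Of 36 measured, 2 were lower and 3 higher in untreated cells, and 2 lower and 4 higher in antibody-treated cells. Their median was 0.11 in untreated cells, close to the 0.07 of all genes, and -0.08 without normalization between arrays. In antibody-treated cells it was 0.03, and -0.18 without normalization, so the sign depends on the scaling. Ift20 (2.19) and Ift27 (1.36) were called higher, and Traf3ip1 (-1.69) and Ift172 (-1.66) lower.

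**Figure D3:**
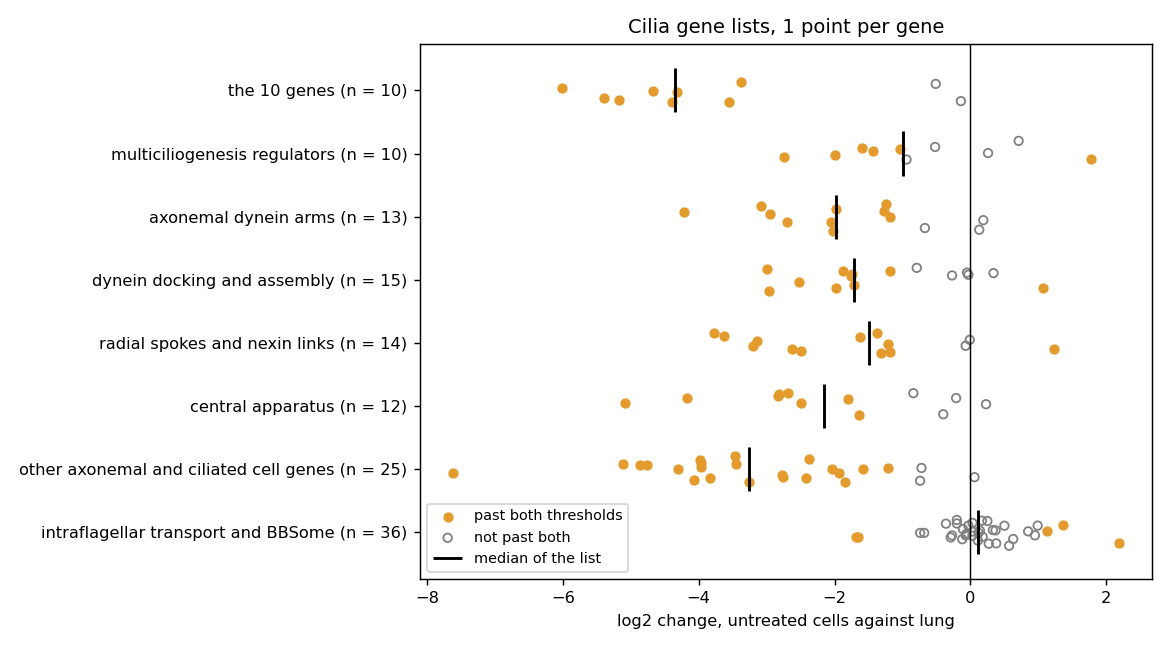
Log2 change of untreated cells against lung for each gene of the 8 lists, 1 point per gene. Filled points passed an adjusted p of 0.05 and a 2-fold change, and the bar is the median. The 10 genes have a median of -4.35 and the intraflagellar transport list of 0.11.

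Paralogs of the members gave a comparison within families. Dynlrb1, the paralog of Dynlrb2 that serves cytoplasmic dynein, averaged 2412 ± 591 in antibody-treated cells, 2442 ± 352 in untreated cells and 2381 ± 204 in lung (log2 change -0.03 in untreated cells, limma adjusted p 0.8). Tppp, the family member first described in brain, had 9.61 ± 2.70, 9.12 ± 4.72 and 198 ± 54.3 in antibody-treated cells, untreated cells and lung (log2 change -2.88 in untreated cells). Mlf2 averaged 634 ± 340, 549 ± 208 and 1851 ± 236 in the same order and changed by -1.75. The other 8 paralogs were not called on the probe sets read, with log2 changes in untreated cells of -0.94 for Rfx2, -0.93 for Foxj3, -0.68 for Foxj2, -0.48 for Rfx1, -0.32 for Dync1h1, -0.25 for Rfx4, -0.06 for Rfx5 and 0.72 for Rfx7. A second probe set of Rfx1 was called lower, at -2.10, so the call for Rfx1 depends on the probe set.

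Markers of several other airway and lung cell types were low in the cells as well. All 10 club cell markers were called lower in both cell groups, and their summed intensity was 278 to 448 in antibody-treated cells, 310 to 328 in untreated cells and 51149 to 70094 in lung. All 9 alveolar type 2 markers and 8 of 9 alveolar type 1 markers were called lower too, and 4 of 7 goblet cell markers. Of the 5 basal cell markers only Krt5 was called lower on the probe sets read, and other probe sets of Trp63 (2.43) and Krt14 (1.31) were called higher in untreated cells. Scgb1a1, the defining club cell secretoglobin, read 6.32 to 22.8 in antibody-treated cells, 0.00988 to 15.7 in untreated cells and 11638 to 14221 in lung. Outside the epithelium, all 6 endothelial, all 5 macrophage and all 6 lymphocyte markers were called lower. Of the 5 smooth muscle markers 4 were called lower. Acta2, the smooth muscle actin, was not on the probe set read, with averages of 4341 in antibody-treated cells, 3790 in untreated cells and 5433 in lung. Another Acta2 probe set was called lower in untreated cells, at -1.67, and a further set, at 0.46, was not called, so the call depends on the probe set. The summed smooth muscle intensity was 3695 to 5097 in antibody-treated cells, 3011 to 4941 in untreated cells and 5201 to 11231 in lung. Of the 6 neuroendocrine and tuft markers, 4 were not called, Resp18 was lower and Dclk1 was higher. Dclk1, a kinase, averaged 3330 in antibody-treated cells, 3045 in untreated cells and 118 in lung, and so carried almost all of the summed intensity of that list in the cells. The part of cell mix in the difference of the cilia genes was not tested.

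Among the lungs, 3 arrays stood apart for most of the members. Male-labelled lungs 2, 3 and 4 were the 3 lowest of the 16 for 7 of the 11 probe sets, those of Foxj1, Dynlrb2, Rsph1, Ccdc113, Tppp3 and Mlf1 and the brighter one of Rfx3. Foxj1 read 367, 338 and 327 in these lungs, against 594 in the next lowest, so they had 40.7%, 37.5% and 36.3% of the median of the other 13 lungs. Rsph1 was at 33.4%, 41.6% and 35.5%, Ccdc113 at 28.0%, 54.6% and 42.2%, and Mlf1 at 43.2%, 54.7% and 43.1%. Dynlrb2, at 72.9%, 59.1% and 57.2%, and Tppp3, at 81.3%, 57.5% and 53.4% were less low in lung 2. For 1110017D15Rik and Tmem212 the lowest lungs were 3 and 4 alone: lung 2 was at 97.8% and 89.7% of the median of the other 13, lung 3 at 46.6% and 58.4%, and lung 4 at 45.2% and 64.3%. Dnah5, at 75.2%, 84.1% and 105%, and the dim Rfx3 probe set, at 98.9%, 121% and 92.3%, did not set these lungs apart.

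**Figure D4:**
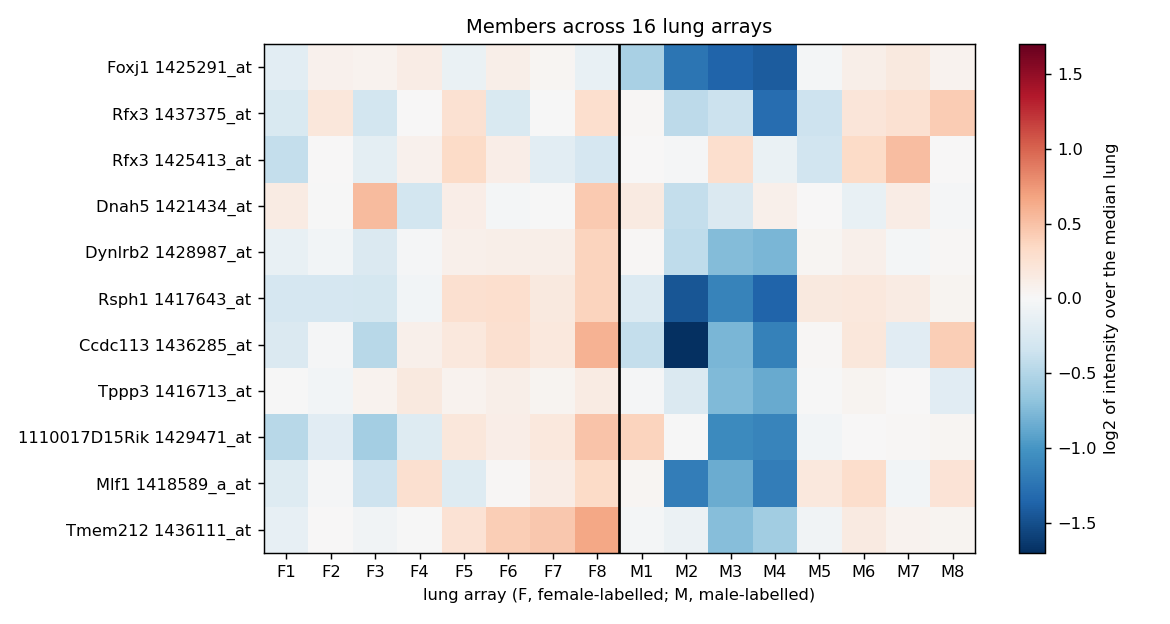
Intensity of the 11 probe sets on the 16 lung arrays as log2 of the ratio to the median lung, female-labelled (F) left and male-labelled (M) right. Blue is below the median. Male-labelled lungs 2, 3 and 4 form the dark columns for Foxj1, Rsph1, Ccdc113 and Mlf1, and lung 2 is near the median for 1110017D15Rik.

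Lungs 3 and 4, which are also the ones whose Xist and Uty go against their label, differed in other cell types too. Lists were read as the mean log2 difference from the median lung, apart from the 10 genes over those of their genes that lay above the middle of the lung arrays. On this scale the 10 genes were at -0.74 in lung 3 and -0.81 in lung 4, below the range of -0.14 to 0.37 of the other 13. Smooth muscle markers were at -0.83 and -0.94, endothelial markers at -0.43 and -0.78 and club cell markers at -0.63 and -0.28, all below the other 13. Macrophage markers were at 1.01 and 1.10 and alveolar type 2 markers at 0.35 and 0.40, all above the other 13. Lung 2, whose Xist and Uty fit its label, was at -0.50 for the 10 genes and at -0.06 for club cell, 0.05 for endothelial and -0.05 for macrophage markers, inside the range of the others. Its smooth muscle markers, at -0.26, and its 3 basal cell markers, at -0.28, were level with the lowest of the other 13 lungs after rounding. Lung 2 was below the other 13 for docking and assembly genes (-0.50, against a lowest of -0.19) and other axonemal genes (-0.45 against -0.23). It was also below them for radial spoke and nexin link genes (-0.21 against -0.17). For intraflagellar transport (-0.15 against -0.14) and central apparatus genes (-0.15 against -0.16) it was close to the lowest of the 13. It was not low for dynein arm genes (0.08), and for multiciliogenesis regulators, at 0.20, it was the highest of the 16. The Gapdh 3′ to 5′ probe set ratio, a sign of RNA integrity, was 0.46 to 0.81 on the log2 scale in these 3 lungs and 0.22 to 1.02 in the other 13. The part of cell mix in the low values was not tested.

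**Figure D5:**
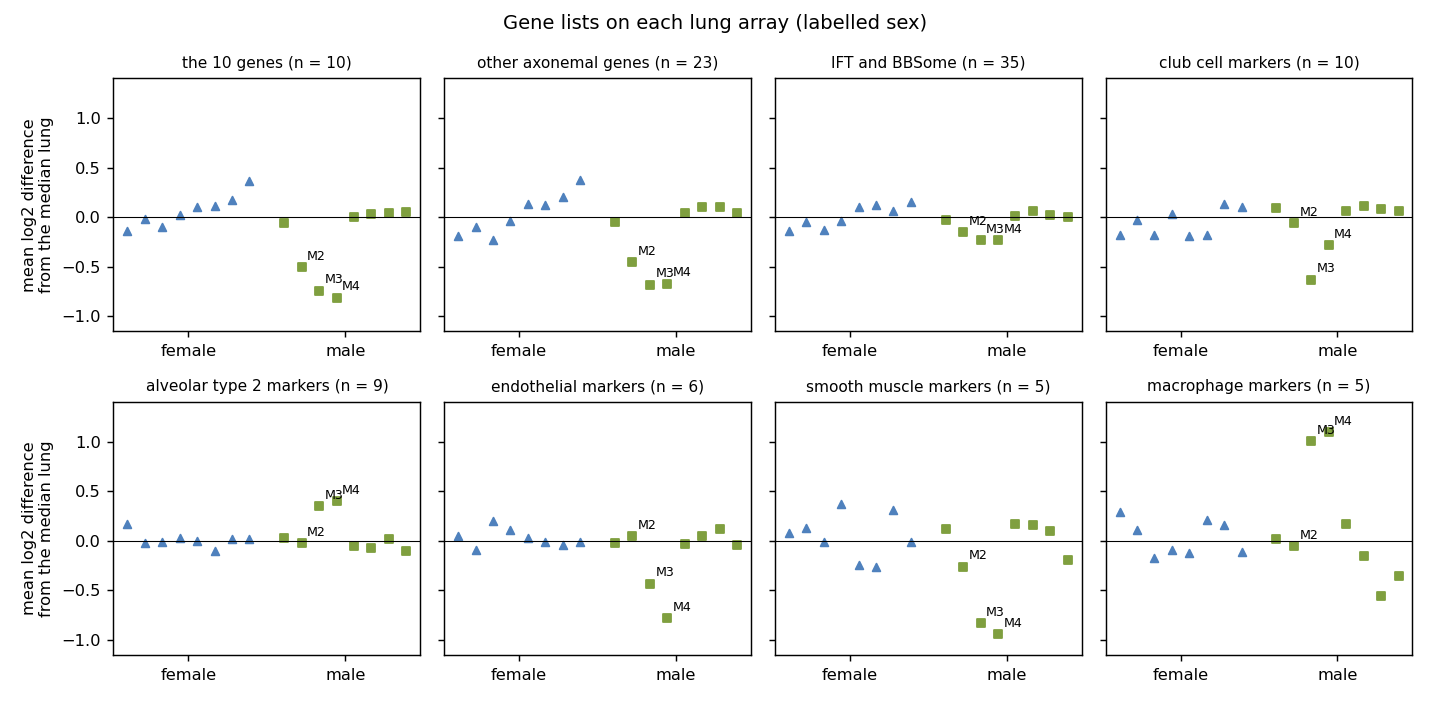
Mean log2 difference from the median lung for 8 gene lists on each lung array, female-labelled left and male-labelled right, with male-labelled lungs 2, 3 and 4 marked. Lungs 3 and 4 are low for cilia, club, endothelial and smooth muscle genes and high for macrophage genes, and lung 2 is low for cilia genes and smooth muscle genes (-0.26) and near 0 for club, endothelial and macrophage genes.

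Between lungs as labelled, female minus male, none of the 11 member probe sets was called, where 9 of 45037 (0.0200%) passed a limma adjusted p of 0.05 and 3752 (8.33%) an unadjusted one. All 10 genes had positive differences on the probe sets read, with a median of 0.31, against -0.00 over all genes. For Foxj1 the difference was 0.52 (95% interval 0.13 to 0.92, limma adjusted p 0.447), for Ccdc113 0.48 (0.07 to 0.89, adjusted p 0.529) and for Rsph1 0.46 (0.05 to 0.88, adjusted p 0.549). Without male-labelled lungs 3 and 4 the Foxj1 difference was 0.26, and without lungs 2, 3 and 4 it was 0.12, with 0.12 for Ccdc113 and 0.04 for Rsph1. Without those 3 lungs Rfx3 (-0.07), 1110017D15Rik (-0.07) and Mlf1 (-0.08) had the opposite sign, so the shared direction rested on them. The 3 lungs are male-labelled and were picked for low values of most of these genes, so smaller differences without them follow from that choice.

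Because 3 lungs stood apart, how closely the members followed each other was read over the other 13 lungs, a choice made after the values were seen. Each gene was correlated with the mean of the other 9, as 10 relations with permutation p-values (100000 resamples, two-sided) adjusted by Benjamini-Hochberg. Dynlrb2 (Pearson's r 0.94, Spearman's rho 0.84, adjusted permutation p 1.0e-04 and 0.003, n = 13) and Tmem212 (r 0.87, rho 0.88, adjusted permutation p 1.0e-04 and 0.0017) followed the others most closely. Rsph1 (r 0.80, rho 0.82, adjusted permutation p 8.0e-04 and 0.00313) and Ccdc113 (r 0.79, rho 0.76, adjusted permutation p 0.00357 and 0.00885) followed them too, and 1110017D15Rik did so by r alone (r 0.64, rho 0.55, adjusted permutation p 0.037 and 0.0957). Without the 2 lungs farthest from the median these r were 0.84, 0.74, 0.72, 0.63 and 0.92. Tppp3 (r 0.51), Mlf1 (r 0.43), Rfx3 (r 0.30), Dnah5 (r -0.03) and Foxj1 (r -0.05) did not pass over the 13 lungs, with adjusted permutation p of 0.124 to 0.923 for r and 0.0957 to 0.658 for rho. Over all 16 lungs, as first planned, r was 0.84 for Foxj1, 0.89 for Mlf1, 0.88 for Tppp3 and 0.72 for Rfx3. These passed by r (adjusted permutation p 9.0e-04, 3.0e-04, 3.0e-04 and 0.00224), but Foxj1 and Rfx3 did not by rho (0.152 and 0.0989). Dnah5 did not pass (r 0.26, adjusted permutation p 0.334). Leaving out lungs picked for low values narrows the range over which the members vary. In the 8 female-labelled lungs r was 0.97 for Dynlrb2, 0.95 for 1110017D15Rik, 0.93 for Ccdc113 and Tmem212 and -0.32 for Foxj1. The mean log2 difference of the 10 genes from the median lung was -0.14 to 0.02 in female-labelled lungs 1 to 4. In female-labelled lungs 5 to 8 it was 0.10 to 0.37. The permutation treats all lungs as exchangeable. Whether the r over these 8 or over the 13 lungs follow that shift was not tested. In the male-labelled lungs, which include the 3 low ones, r was 0.95 for Foxj1.

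The genes whose pattern over the 16 lungs was most like the mean of the 10 were Stmnd1 (r 0.983), Tekt1 (0.971), Ttc29 (0.969), Ppil6 (0.964), Hoatz (0.962), 1700088E04Rik (0.961), Kcnmb2 (0.958), Lrrc23, Cfap161 and Cfap299 (0.957 each), out of 12168 genes compared, those with a lung log2 mean above 5.99. Tekt1, a tektin of axonemal microtubules, and Lrrc23 were on the lists above, and the other 8 were not. These r carry the 3 low lungs: without them, 3 of the 10 remained among the closest 10 (Kcnmb2 at 0.951, Stmnd1 at 0.927 and Ppil6 at 0.922) and 6 among the closest 50. Stmnd1 averaged 5.92 ± 1.02 in antibody-treated cells, 5.51 ± 1.99 in untreated cells and 542 ± 130 in lung. Genes entered this comparison through their level in lung, so their levels in the cells are a description. Over the 69 compared genes of the 6 lists the median r was 0.83, against 0.06 over all compared genes, and without the 3 lungs it was 0.65 against 0.08. By list, the median r without the 3 lungs was 0.79 for other axonemal genes, 0.76 for radial spokes and nexin links, 0.54 for intraflagellar transport genes, 0.17 for club cell markers and 0.03 for multiciliogenesis regulators.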

How the data were processed

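The files hold array intensities of 22 samples, deposited by the authors on a linear scale. PLIER made these probe set values, as credited in the submitters' processing notes, and its version, settings and scaling are not given in the sources used here. Probe sets were named from the platform annotation, and 64 controls were not tested. Values were taken as log2(intensity + 16), quantile normalized over 22 arrays and fitted with limma 3.58.1 (R 4.3.3, variance trend, two-sided tests, Benjamini-Hochberg adjustment), with every probe set as a feature and no filter on low values. Cells were set against the mean of female and male lung in a fit of all 4 groups, antibody-treated against untreated cells on the 6 cell arrays, and female against male lung on the 16 lungs. The code was tested on simulated data.

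A listed gene was read by the probe set with the highest mean over 22 arrays, avoiding cross-hybridizing sets. Genes named are the members, up to 4 per list with the largest change of untreated cells against lung, all paralogs and the 10 genes most like the members in lung. The members and lists were chosen with earlier results of these data known. Alternatives changed the offset (1 or 64), the normalization (none, or median centring), the features (a 40th percentile filter, or 1 probe set per gene), the variance trend, a replicate block and which arrays entered the model. The number of arrays limits the precision.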

Additional observations from a re-analysis of the deposited data

Results flagged for a closer look

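The spiked poly-A transcript dap, outside the main measurement, reached 438 or more in all 6 cell samples, where no lung exceeded 3.70. It stands here as a signal that differs between cells and lung, and its part in the changes of the cilia genes was not tested. No lung was far enough from the others of its labelled sex to stand out by Dixon's test among the 22 groups tested (11 probe sets in 2 sexes). This test looks for a single outlying value, and several low values close together hide each other. Foxj1, for example, read 327, 338 and 367 in male-labelled lungs 4, 3 and 2. The test therefore cannot decide whether these lungs stand apart.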

How the results depend on the processing

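The 8 member probe sets called lower against lung were called under every alternative in both cell groups, and none of the 11 was called between antibody-treated and untreated cells or between female and male lung under any. The log2 change of Foxj1 ranged from -5.53 to -3.32 in antibody-treated and from -5.17 to -3.24 in untreated cells, with the offset moving it most. Of the 6 lists, 46 to 68 genes were called lower in antibody-treated and 47 to 70 in untreated cells. The median change of all probe sets in untreated cells was 0.17, 0.02 without normalization and 0.29 with median centring. The share of calls that were higher in untreated cells was 51.7%, and 40.6% without normalization.

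Probe sets called against lung numbered 13234 in antibody-treated and 13372 in untreated cells, 20246 and 20438 with an offset of 1, 7894 and 7994 with an offset of 64, and 6335 and 6419 with 1 probe set per gene, where fewer features were tested. Leaving out each cell array in turn gave 3 to 10 calls between antibody-treated and untreated cells, against 3 with all. Between female and male lung the 9 calls became 5 without normalization, 27 with median centring, 32 with the 40th percentile filter, 4 with 1 probe set per gene, 45 without male-labelled lungs 3 and 4 and 81 without lungs 2, 3 and 4. Over all 16 lungs the median r of a member with the others was 0.83, against 0.58 without lungs 3 and 4 and 0.57 without lungs 2, 3 and 4. The cause of these shifts was not tested.

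The labels do not say whether replicate numbers pair the samples. Deviations of same-numbered cell samples correlated at -0.123 to 0.002, and the highest with another number was 0.011 to 0.107. For lungs these were -0.06 to 0.202 and 0.079 to 0.314. Lung replicates 6 (0.202 against 0.201) and 8 (0.154 against 0.079) were closest to their own number. Such low correlations show no clear pairing but cannot exclude one. With the replicate number as a block, 8 member probe sets were still called lower in each of the cell groups, 3 probe sets were called between antibody-treated and untreated cells, and 0 between female and male lung. The cells are 1 line, the lungs a mix of cell types, and low values have no detection call.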
